A study of Mus musculus with 185 samples.

Results

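The 10 transcription factor genes described here, Id2, Runx3, Spi1, Irf8, Irf4, Klf4, Zeb2, Cebpa, Ikzf1 and Batf3, are regulators that set or mark the identity of Langerhans cells (LCs) and of the mononuclear phagocytes closest to them. They form a list of names, with no threshold on their values, and are 10 of the 45661 genes listed for each cell. All 10 were read in the cells analysed, as were 17821 of the listed genes.

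Single LCs were index sorted from the epidermis of bone marrow chimeras and read by full-length cDNA sequencing, with the aim of finding differences that depend on origin. The hosts were lethally irradiated CD45.1 Cd207DTR mice on the B6 background, whose Cd207 locus holds a receptor for diphtheria toxin (DT), and the graft was CD45.2 wild-type (WT) bone marrow. All chimeras received DT at a low dose, 5 ng per gram of weight, and cells were sorted 2 months later, so that both origins came from irradiated and DT-treated skin. Host CD45.1 cells are embryo-derived LCs (eLCs) and donor CD45.2 cells are monocyte-derived LCs (moLCs). The eLCs therefore carry the Cd207DTR allele, were present at irradiation and survived a partial depletion, whereas moLCs carry WT alleles and came from the graft, and these differences cannot be told apart from origin. The gate took CD11c+ CD11b+ CD24+ MHCII+ CD326+ cells without T, B, NK, neutrophil or eosinophil markers.

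PU.1, the product of Spi1, is an ETS factor that myeloid cells need throughout their development, and it binds the genes of several growth factor receptors. In LCs it acts together with RUNX3 downstream of TGF-β, and mice that lack Runx3 or Id2 have no or few LCs. ID2 has no DNA-binding domain and works by holding E proteins off DNA. IRF8, IRF4, BATF3, KLF4 and ZEB2 are better known for sorting classical dendritic cells (DCs) into their types, and LCs form without BATF3. C/EBPα is the factor of the granulocyte and monocyte progenitor, and Ikaros (Ikzf1) acts from the progenitor stage onwards.

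Of 185 cells, 182 had at most 5% of their reads on mitochondrial genes and were kept. The 79 eLCs were split into 29 cells on plate 1 and 50 on plate 2, and the moLCs, from which 3 cells were dropped, into 67 and 36. The cells had 432614 to 4525429 reads on genes, with a median of 4026 genes with a read in moLCs and 4488 in eLCs. All 10 LC markers looked for had reads, and their summed level ran from 8719 to 307157 counts per 1000000 reads (CPM) in moLCs and from 94779 to 268704 CPM in eLCs. One moLC of plate 1 stands apart at the low end, since the next lowest cell had 46024 CPM, and it had no read of 4 of the markers, Cd207 among them. Of 5 monocyte markers, S100a8 was at 0 and the others had reads in 3 moLCs and 2 eLCs in all, and of 6 T cell genes, Cd3e, Trdc and Thy1 were at 0 and the others had reads in 2 moLCs and 4 eLCs, at up to 153 CPM in a cell. Keratinocyte markers had reads in 17 moLCs and 6 eLCs.

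Since the labels tie no cell to an animal, each origin counts as 1 sample, no test between origins was possible, and no p-value is given. Reads of an origin were summed over its cells and divided by the total to give CPM. Intervals are at 95%, exact Poisson for summed CPM, exact Clopper-Pearson for shares of cells and exact binomial for ratios. They cover counting error only, and since the kit adds no molecular identifiers and PCR copies count as separate reads, they are far narrower than the spread between cells. The plate is the technical batch that the labels give, so every ratio was also computed within each plate.

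To show regulatory sequence at the members, the 250 bases before the RefSeq start site (GRCm38.p6, the most upstream site where a gene has several) were searched on both strands for 4 core motifs of the members' own kinds of factor. These were GAGGAAGT for PU.1, TGTGGT for RUNX, AANNGAAA for IRF and CACCTG for the E-box that E proteins and ZEB factors bind. Of the 9 members with an entry, Runx3 and Zeb2 held any of them, and no match overlapped another. The windows of these genes are shown for their matches, and that of Ikzf1, the member with the most CpG sites, because Ikzf1 is the 1 member that passed the rule of size used here. Matches are in capitals and each sequence runs 5′ to 3′ on the gene's strand.
Runx3, plus strand, chr4:135120395-135120644: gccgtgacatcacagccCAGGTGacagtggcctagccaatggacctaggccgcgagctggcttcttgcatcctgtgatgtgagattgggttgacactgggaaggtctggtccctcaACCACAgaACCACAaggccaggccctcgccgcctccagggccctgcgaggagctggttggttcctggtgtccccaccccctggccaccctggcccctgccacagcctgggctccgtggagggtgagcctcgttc
Zeb2, minus strand, chr2:45117443-45117692: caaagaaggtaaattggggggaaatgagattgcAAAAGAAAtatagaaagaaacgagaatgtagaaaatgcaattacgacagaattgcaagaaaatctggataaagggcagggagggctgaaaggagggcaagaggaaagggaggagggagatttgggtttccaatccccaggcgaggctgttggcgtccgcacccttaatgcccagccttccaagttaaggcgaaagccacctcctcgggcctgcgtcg
Ikzf1, plus strand, chr11:11685675-11685924: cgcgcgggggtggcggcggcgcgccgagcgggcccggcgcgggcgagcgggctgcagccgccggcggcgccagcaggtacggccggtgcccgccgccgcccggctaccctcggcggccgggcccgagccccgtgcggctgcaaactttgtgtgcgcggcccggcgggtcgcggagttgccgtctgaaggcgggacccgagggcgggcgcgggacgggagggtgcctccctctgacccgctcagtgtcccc
In the Runx3 window the E-box match starts 233 bases before the start site and the pair of RUNX matches start 134 and 126 bases before it, all 3 with the motif on the other strand. The IRF match of Zeb2 starts 217 bases before its start site. Among all 32851 RefSeq windows of this length, 21.3% held the IRF letters, 17.2% the E-box, 14% the RUNX letters and 2.44% the PU.1 letters. The 9 windows held 8 (Runx3) to 44 (Ikzf1) CpG sites, against a median of 6 over all windows. A match is a run of letters and not a measured site, and no binding was measured in these cells.

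The order of the members by level was similar in both origins. Per kilobase of exon, Spi1 was the highest, with a level of 263 CPM per kb in moLCs and 243 in eLCs, then Id2 with 102.9 and 107.4, then Irf8 with 15.8 and 14.1. This order of the first 3 held in each origin on each plate. Klf4, Irf4 and Runx3 followed, between 8.30 and 11.1 CPM per kb in moLCs and between 6.38 and 7.52 in eLCs, with Klf4 next after Irf8 in 3 of the 4 sets of origin and plate and Runx3 in the remaining set, so these neighbours had no fixed order. Ikzf1 was at 2.13 and 0.71 CPM per kb, Batf3 at 1.69 and 0, and Zeb2 and Cebpa were between 0.03 and 0.33. Divided by the longest coding transcript instead of all exons, the first 3 kept their order, Irf8 was at 39.1 and 34.8 CPM per kb, and Batf3, at 3.37 in moLCs, stood above Ikzf1, at 2.38. Among the 17821 genes with a read, the summed reads of Spi1 lay at the 99.1 percentile, those of Id2 at 97.1, of Irf8 at 92.3, of Irf4 at 83.3, of Runx3 at 82.2 and of Klf4 at 77.2, without correction for length.

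**Figure D1:**
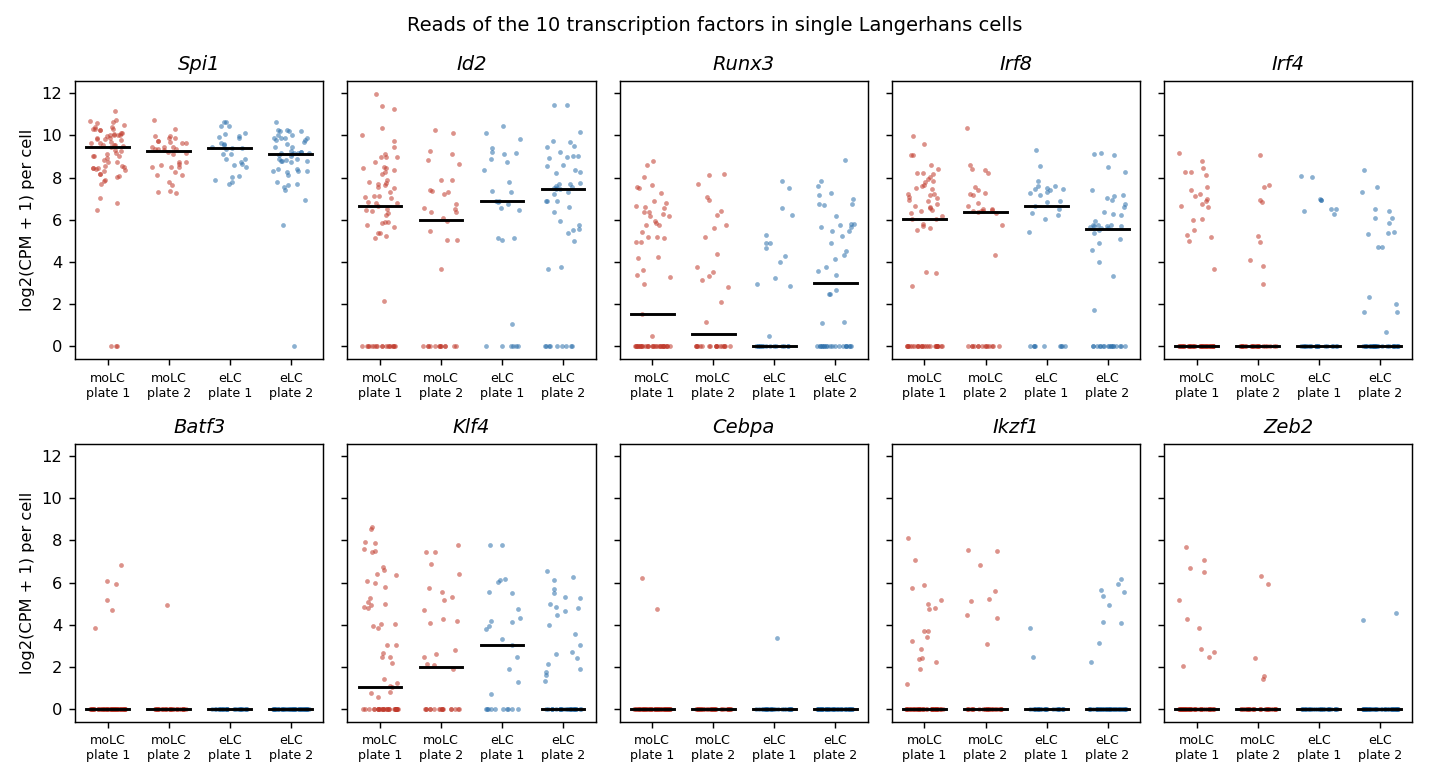
Level of each factor in every cell as log2(CPM + 1), in moLCs (red) and 79 eLCs (blue) split by plate, with each point a cell and the bar the median. Spi1 is read in nearly every cell, and Id2, Irf8, Runx3 and Klf4 with many cells at 0. Zeb2 and Batf3 are read in a few cells that are nearly all moLCs, and Cebpa in 2 moLCs and 1 eLC.

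Spi1 was read in 100 moLCs (97.1%, 91.7 to 99.4) and 78 of 79 eLCs (98.7%, 93.1 to 100). The lowest, median and highest cell had 0, 644 and 2270 CPM among moLCs and 0, 578 and 1609 CPM among eLCs, so the origins overlapped over nearly their whole range. Summed over cells, moLCs had 710 CPM and eLCs 654 CPM, which is a log2 ratio (moLCs over eLCs, as in all ratios) of 0.12 (0.11 to 0.13), with 0.09 on plate 1 and 0.03 on plate 2. Spi1 was also the most even member from cell to cell, with a coefficient of variation of 0.64 in moLCs and 0.59 in eLCs, where the other members had 1.44 or more. Id2 was read in all 4 cells that lacked a read of Spi1.

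Id2 was the only member with a higher summed level in eLCs. It was read in 72 moLCs (69.9%, 60.1 to 78.5) and 64 of 79 eLCs (81%, 70.6 to 89). Cells ran from 0 through a median of 84.3 to 4038 CPM in moLCs and from 0 through 156 to 2741 CPM in eLCs. The origins overlap over most of the range, with the highest cell a moLC. The summed level was 251 and 262 CPM, a log2 ratio of -0.06 (-0.08 to -0.05). The ratio was 0.15 on plate 1 and -0.70 on plate 2, where moLCs had 157 CPM and eLCs 256 CPM. The direction rests on plate 2, and it turned with TMM factors, which move every ratio up by 0.10 and put Id2 at 0.04. The share of moLCs minus that of eLCs was -6.18 percentage points on plate 1 and -18.1 on plate 2, and -8.42 and -22.3 after every cell was thinned to 2052512 reads.

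A few cells carried much of the Id2 signal. In moLCs the 5 highest cells held 39.2% of its reads and the highest alone 13.6%, and without that cell the log2 ratio was -0.26. The moLC that lacked Cd207 had 2408 CPM of Id2, 784 CPM of Irf8, 60.4 CPM of Batf3, 313 CPM of Spi1 and 9601 CPM of Ccr7, the chemokine receptor of migrating DCs, and no read of the other 6 members. Without it the log2 ratio was -0.15 for Id2, 0.10 for Irf8 and 7.38 for Batf3, the last with 3 reads taken for the eLCs, which had none.

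Runx3 was read in 53 moLCs (51.5%, 41.4 to 61.4) and 44 of 79 eLCs (55.7%, 44.1 to 66.9). The lowest, median and highest cell had 0, 1.23 and 434 CPM among moLCs and 0, 4.66 and 451 CPM among eLCs, and the cells of one origin covered the range of the other. Summed levels were 41.5 and 37.6 CPM, a log2 ratio of 0.14 (0.10 to 0.18). The plates went in opposite directions, with 0.74 on plate 1 and -0.45 on plate 2. All 3 factors of the PU.1, ID2 and RUNX3 set were read together in 37 moLCs (35.9%, 26.7 to 46) and in 31 of 79 eLCs (39.2%, 28.4 to 50.9), where the product of their shares gives 34.9% and 44.5%.

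The interferon regulatory factors were read in unequal shares of cells, Irf8 in more than Irf4. Irf8 was read in 63 moLCs (61.2%) and 53 of 79 eLCs (67.1%), with a lowest, median and highest cell of 0, 72 and 1318 CPM among moLCs and 0, 51.8 and 637 CPM among eLCs. Its summed levels of 111 and 99.2 CPM gave a log2 ratio of 0.17 (0.14 to 0.19), with -0.16 on plate 1 and 0.48 on plate 2. On plate 2, 1 moLC held 28.8% of the moLC reads, and without that cell the pooled ratio was 0.02. Irf4 was read in 32 moLCs (31.1%) and 27 of 79 eLCs (34.2%), so the median cell had 0 CPM in both, and the highest had 578 and 328 CPM. Its summed levels were 49.2 and 35.3 CPM, a log2 ratio of 0.48 (0.44 to 0.52), with 0.23 on plate 1 and 0.54 on plate 2, although the share of cells was the lower one in moLCs. On plate 2, 1 moLC held 50.2% of the Irf4 reads of moLCs and 1 eLC held 34.9% of those of eLCs. The plate 2 direction therefore rests on few cells, and it was not recomputed without them. With any 1 cell left out, the pooled Irf4 ratio was between 0.27 and 0.72. Both genes were read in 41 of the 182 cells, Irf8 alone in 75, Irf4 alone in 18 and neither in 48, and the rank correlation of their CPM was 0.01.

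Batf3, the partner of IRF8 in the DC type 1 (DC1), had reads in 7 moLCs (6.80%, 2.78 to 13.5) and in 0 of 79 eLCs, which allows a share of up to 3.80% if 3 cells are taken as the limit of a count of 0, or 4.56% by the exact interval. The 7 moLCs, 6 of them on plate 1, had 39 to 251 reads and 13.5 to 114 CPM, and 6 of the 7 also had a read of Irf8. The summed level in moLCs was 2.70 CPM (2.51 to 2.89), 196-fold the level that 3 reads over all eLCs would give. That ratio is set by the 3 reads taken for eLCs and by the number of reads in those 7 cells, so it is not a lower limit. The intervals of the shares overlap between origins. Genes of the DC1 list, Xcr1, Clec9a, Itgae and Cadm1, had a read in 44 moLCs and 53 eLCs, with a median summed level of 0 and 60.7 CPM, and their part in the Batf3 values was not tested.

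Klf4, a zinc finger factor that responds quickly to stimuli, was read in 56 moLCs (54.4%, 44.3 to 64.2) and 42 of 79 eLCs (53.2%, 41.6 to 64.5). The lowest, median and highest cell had 0, 1.12 and 397.5 CPM among moLCs and 0, 1.55 and 218 CPM among eLCs. Summed, moLCs had 34 CPM and eLCs 19.5 CPM, which gives a log2 ratio of 0.80 (0.75 to 0.86), 0.21 on plate 1 and 1.38 on plate 2. The share of moLCs minus that of eLCs was 1.20 percentage points, but the plates went in opposite directions, with -10.3 on plate 1 and 6.78 on plate 2. Among cells with a read the median was 27.1 CPM in moLCs and 17.7 CPM in eLCs. Within an origin, Klf4 also had the largest gap between plates among the 6 members read in at least 25% of all cells, since eLCs had 31.2 CPM on plate 1 and 11.5 CPM on plate 2.

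Ikzf1, the Ikaros gene, had a higher summed level in moLCs in the pooled cells and on each plate. It was read in 27 moLCs (26.2%, 18 to 35.8) and 12 of 79 eLCs (15.2%, 8.10 to 25). Its highest cell had 276 CPM among moLCs and 70.6 CPM among eLCs, while the median cell had 0 CPM in both. Summed levels of 12.3 CPM (11.9 to 12.7) in moLCs and 4.08 CPM (3.81 to 4.35) in eLCs gave a log2 ratio of 1.59 (1.49 to 1.70). It was 4.13 on plate 1, where eLCs had 46 reads in 2 cells, and 1.49 on plate 2, and it stayed between 1.34 and 1.95 with any 1 cell left out. The shares were 26.9% and 6.90% on plate 1, where 18 and 2 cells had a read, and 9 of 36 and 10 of 50 cells on plate 2, and their intervals overlapped in each case. The 5 highest moLCs held 67.7% of the reads of all moLCs.

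Ikzf1 was also the only member to pass a rule of size, which kept genes read in 25% or more of either origin's cells whose ratio was 2-fold or greater, with a shared sign, in the pooled cells and on each plate. The rule was passed by 132 of the 6522 genes read widely enough (2.02%), 53 of them higher in moLCs (0.813%) and 79 higher in eLCs (1.21%). Among the members, 7 were read widely enough, with Ikzf1 included only through its share in moLCs, so that a single call among 7 is a small count from which nothing is read about the set. No member differed by at least 20 percentage points in its share of cells on both plates, a rule that 68 of 17821 genes passed (0.382%). None of the 7 members read widely enough differed 2-fold between plates in the same direction in both origins, as 89 of 6522 genes did (1.36%). Cebpa, read in too few cells for this rule, had reads on plate 1 only in both origins.

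Zeb2, a repressor that competes for E-boxes and is high in monocytes and in some DCs, showed the clearest difference in the share of cells. It was read in 16 moLCs (15.5%, 9.15 to 24) and 2 of 79 eLCs (2.53%, 0.31 to 8.85). It was the 1 member whose intervals did not overlap between origins, where 211 of the 17821 genes with a read did not overlap (1.18%), 25 of them higher in moLCs (0.14%) and 186 higher in eLCs (1.04%). On plate 1 the counts were 11 of 67 moLCs and 0 of 29 eLCs, which allows up to 10.3% (exact interval, 11.9%), and on plate 2 they were 5 of 36 and 2 of 50, and within each plate the intervals overlapped. The moLCs with a read had 6 to 449 reads each, from 1.69 to 204 CPM, and the 2 eLCs had 54 and 78 reads. Summed levels of 6.65 CPM (6.36 to 6.95) in moLCs and 0.61 CPM (0.51 to 0.72) in eLCs gave a log2 ratio of 3.46 (3.20 to 3.72). It was 1.88 on plate 2 and 7.91 on plate 1, where 3 reads were taken for the eLCs. Left out in turn, single cells moved the pooled ratio between 3.10 and 4.72, the higher value without 1 of the 2 eLCs. With every cell thinned to 2052512 reads, the share of cells with Zeb2 was 16.7% in moLCs and 2.99% in eLCs. The monocyte markers, read in 3 moLCs at up to 14.5 CPM in sum and in 2 eLCs at up to 0.59 CPM, were not tested for a part in the Zeb2 values.

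Cebpa was near the limit of what these libraries hold, with 252 reads in 2 moLCs (1.94%, 0.24 to 6.84) and 36 reads in 1 eLC (1.27%, 0.03 to 6.85), all on plate 1. Neither origin had a read on plate 2. The log2 ratio of 2.34 rests on these 3 cells and ran from 0.84 to 5.90 with 1 of them left out.

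**Figure D2:**
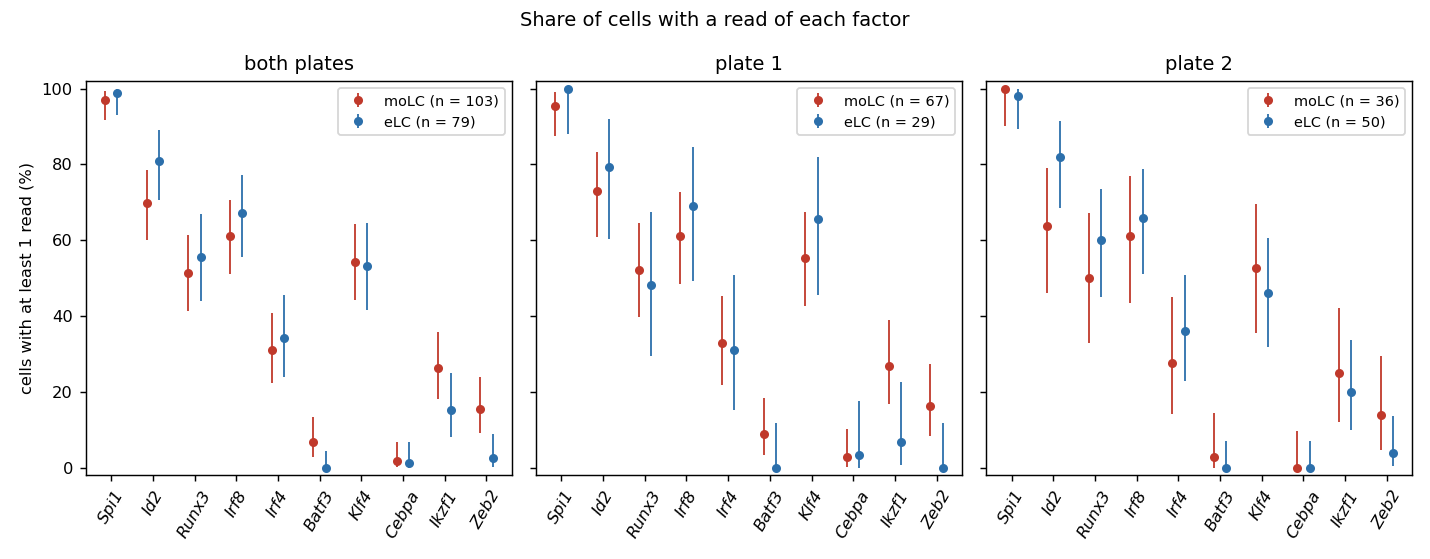
Share of cells with at least 1 read of each factor, in percent, for moLCs (red) and eLCs (blue) in both plates together and in each plate, with exact 95% intervals. The intervals overlap for every factor except Zeb2 in the pooled cells.

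In sum over the list, 9 members had a higher summed level in moLCs and 1 in eLCs, and 6 kept 1 direction in the pooled cells and on both plates. The 9 include Batf3, set against a floor, Cebpa, read in 3 cells, and Runx3 and Irf8, which changed sign between plates. The same directions were not counted over all genes, so nothing is read from these counts about the set. The median log2 ratio was 0.64 over all 10 members, which includes the 3 sparse genes and the floor value of Batf3. Over the 6 members read in at least 25% of all cells it was 0.15, with 0.18 on plate 1 and 0.25 on plate 2. Over all 5988 genes read that widely it was -0.09, with -0.07 and -0.09 on the plates. Because an origin is 1 sample, a gap of this size cannot be set against a spread between animals.

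The number of members read per cell was the same in both origins, with a median of 4 of 10, from 1 to 8 in moLCs and from 2 to 7 in eLCs. The mean was 4.16 ± 1.46 (SD over cells) in moLCs and 4.09 ± 1.13 (SD over 79 cells) in eLCs. Correlations between the factors across cells were mostly near 0. Over the 45 pairs, the Spearman correlation of CPM across 182 cells had a median of 0.01 and ran from -0.17 to 0.24, and 43 pairs lay within 0.2 of 0. In 4 pairs the sign was shared by all 4 sets of origin and plate. Points in these correlations share plate, library depth and a large number of zeros, and weak values in such sparse counts are no finding.

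The highest value, 0.24 for Zeb2 and Cebpa, came from 2 cells that had both genes. Irf4 and Zeb2 had 0.23, with 11 of the 18 cells with Zeb2 also having Irf4, among them both eLCs, and the value was 0.08 to 0.33 in the 3 sets that could give it. The lowest, -0.17 for Id2 and Spi1, was -0.01 in moLCs and -0.37 in eLCs, where it was -0.36 on plate 1 and -0.35 on plate 2. Runx3 and Klf4 had the next lowest value, -0.17, with -0.10 in moLCs and -0.28 in eLCs. No difference between these origins was tested. The correlation of a member with the number of genes per cell was at most 0.18, for Irf8.

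**Figure D3:**
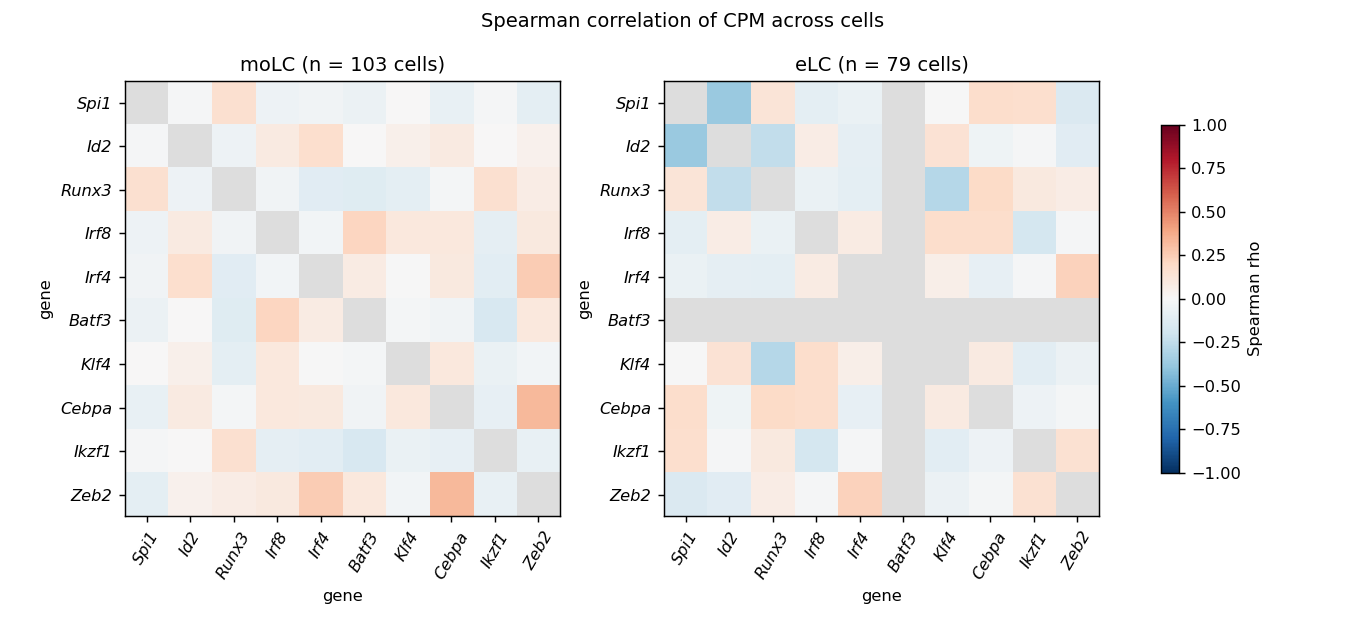
Spearman correlation of CPM between the factors across the moLCs (left) and 79 eLCs (right), with the colour scale from -1 to 1 and grey where a gene had no read or on the diagonal. Most squares are pale, and the deepest in eLCs is Id2 with Spi1 at -0.37.

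The members were also set beside Ccr7, Timd4, Lyz2 and Cd207, markers of migration, embryonic origin, myeloid origin and the LC itself. The level of Ccr7 had a correlation of 0.21 with Id2, 0.20 with Irf8, 0.23 with Batf3, 0.15 with Irf4 and -0.17 with Ikzf1. For Id2 it was 0.23 in moLCs and 0.20 in eLCs, and for Irf8 0.25 and 0.13. The value for Batf3 rests on 7 moLCs with a read, among them the moLC that lacked Cd207 and had 9601 CPM of Ccr7. In eLCs, without a read of Batf3, it could not be computed. Timd4, a receptor of embryo-derived macrophages, had 0.21 with Irf4 and 0.20 with Id2, and Lyz2, a myeloid lysozyme, had 0.15 with Spi1. Cd207, which codes for Langerin and is the locus of the DT receptor in eLCs, was between -0.10 and 0.09 with every member over all cells, and within 1 origin it ran from -0.28 (Zeb2) to 0.25 (Id2) in moLCs and from -0.18 (Cebpa, with Id2 also at -0.18) to 0.28 (Irf4) in eLCs. Within an origin, the highest value of Timd4 was 0.32 with Klf4 in eLCs and 0.20 with Irf4 in moLCs, where Klf4 had -0.14. These are descriptions over 182 cells.

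For each of the 6 widely read members, the 3 genes with the most similar pattern were taken as those with the highest value of the lowest correlation among the 4 sets, out of 5566 genes that reached a share of 25% in both origins. They included Tnfrsf9, Usp53 and Cycs for Id2, Otulinl, Cd72 and Sdha for Runx3, Atp5a1 and Twf2 for Spi1, Ciao3, Crebbp and Tmem131 for Irf8, Tnfrsf1b, Bhlhe40 and Gpcpd1 for Irf4, and Atf4 and Taf13 for Klf4. The lowest of the 4 correlations lay between 0.17 (Tmem131 with Irf8) and 0.28 (Atf4 with Klf4). These are the highest values picked from 5566 genes, in sets of 29 to 67 cells. With the correlation over all cells instead, the set of 3 genes changed for each of the 6 members, and those of Irf8 became Bhlhe40, Herpud1 and Skil. No member was among the 3 genes of another.

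The relatives of the members were looked at as 9 lists of 36 genes, their family members and binding partners. Of these, 30 had a read and 18 reached a share of 25% in either origin. None of the 18 passed the size rule in either direction, where 2.02% of the 6522 genes read that widely did, so nothing is read from this count. Over the 17 read in at least 25% of all cells, the median log2 ratio was 0.10, with -0.04 on plate 1 and -0.01 on plate 2. Among inhibitors of E proteins, Id3 had 82 CPM in moLCs, 35 CPM in eLCs and a log2 ratio of 1.23, with 2.997 on plate 1 and 0.64 on plate 2. Id1, of the same kind, was the higher in eLCs, with reads in 4 moLCs and 8 eLCs, summed levels of 1.82 and 9.22 CPM and a log2 ratio of -2.34. It was -2.41 on plate 1, and moLCs of plate 2 had no read. The E proteins themselves were read in few cells, Tcf3 in 20.4% of moLCs and 29.1% of eLCs and Tcf12 in 19.4% and 8.86%. Runx1 was read in 59.2% and 53.2% of cells and Cbfb, the partner of RUNX proteins, in 46.6% and 65.8%.

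Several relatives were read more widely than the member itself. Zeb1 reached 94.2% of moLCs and 92.4% of eLCs, at 290 and 259 CPM, where Zeb2 was read in 15.5% and 2.53%. Irf5, an activator of inflammatory genes, was read in 93.2% and 98.7%, and Klf6 in 90.3% and 89.9%. Cebpb was read in 83.5% and 84.8%, against 2 moLCs and 1 eLC with Cebpa. Jun, which pairs with BATF proteins, was at 1396 and 757 CPM with a log2 ratio of 0.88, 1.59 on plate 1 and 0.23 on plate 2. Spib and Spic, the ETS factors closest to PU.1, had no read in any kept cell.

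Upstream and downstream genes had no call either, but few were read widely enough for the size rule, which 2.02% of such genes passed. Nothing is read from counts of 0 in lists this short. Of 10 genes that feed the members (TGF-β and BMP receptors and SMADs, Tgfb1, Csf1r and Ahr), 9 had a read and Smad3 had none. Of these, 7 were read widely enough and 0 passed the size rule. Tgfbr1 was at 33.1 and 15.8 CPM, a log2 ratio of 1.07, with 1.75 on plate 1 and 0.65 on plate 2. Tgfbr2, its partner in the receptor, was at 10.9 and 15.5 CPM, a log2 ratio of -0.51, with 0.38 and -1.98 on the plates. Smad7, which inhibits TGF-β signalling, was at 4.37 and 8.63 CPM, a log2 ratio of -0.98, with 0.17 and -1.21. Bmpr1a was read in 1 moLC and 2 eLCs. Csf1r, the receptor of CSF1 and IL-34, whose gene PU.1 binds, was at 858 and 1179 CPM, a log2 ratio of -0.46. Of 7 genes bound by PU.1, Csf3r and Fcgr1 had no read, 4 were read widely enough and 0 passed the rule. Of 12 factors of other mononuclear phagocytes, 3 were read widely enough and 0 passed. Gata6 of peritoneal macrophages, Sall1 of microglia, Pparg of alveolar macrophages and Spic of red pulp macrophages had no read.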

How the data were processed

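Epidermal LCs were sorted singly, amplified with a Smart-Seq kit, and sequenced. The authors aligned reads to mm10 with STAR and deposited estimated counts of reads per gene and cell, without normalization. The counting tool and the annotation are not given in the sources used here. Rounding changed 9 deposited values, in 8 cells. Origin and plate came from the labels. Cells with more than 5% of reads on 37 mt- genes were left out (3 moLCs of plate 2).

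The members and gene lists were chosen with earlier results of these data known. Named genes are the 10 members, the genes most like each member, and members of the lists. Some genes that this rule names are not reported here. Gene lengths are the exon unions of GENCODE M21 (GRCm38). Coordinates and sequences of promoters are those of RefSeq. A floor of 3 reads summed over the cells stood in for an origin at 0. Thinned cells had 2052512 reads (the 10th percentile), which left 163 cells.

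Python 3.11.15, numpy 2.4.6, pandas 2.3.3, scipy 1.17.1 and matplotlib 3.10.9 were used, with edgeR 4.0.16 in R 4.3.3 for TMM factors only. A Wilcoxon test on cells, which takes cells as replicates, was not run. No doublet caller was run on singly sorted cells. Whether reads were counted by strand is not given, but genes that overlap the members and are listed had at most 5 reads (Gm45091, antisense to Cebpa, was not analysed here).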

Additional observations from a re-analysis of the deposited data

How the results depend on the processing

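Each result was recomputed with 1 choice changed at a time. Spi1, Irf4, Klf4, Zeb2, Cebpa, Ikzf1 and Batf3 kept their direction in all alternatives that gave a value, and Cebpa gave none on plate 2. Single cells were left out of the pooled cells only and not within a plate. Id2 was higher in moLCs in 5 of 12 (plate 1 alone, TMM factors, totals without the 50 top genes, thinning and 1 cell left out), Runx3 turned on plate 2 alone and Irf8 on plate 1 alone. The median log2 ratio of the 10 members, 0.64, was 0.49 on plate 1, 0.54 on plate 2, 0.77 with all cells, 0.59 with at most 2.5% mitochondrial reads, 0.80 with equal weight per cell, 0.74 with TMM factors, 0.71 without the 50 genes with the most reads in the totals, and between 0.54 and 0.78 with each cell left out in turn. Members past the 2-fold rule numbered 2 on plate 2 alone, 3 with no minimum share of cells and 0 with a minimum of 50%, against 1. Genes past it numbered 802 on plate 1 alone, 849 on plate 2 alone, 1471 with no minimum share, 23 with a minimum of 50% and 501 at 1.5-fold, against 132. Genes 20 points apart in share numbered 835 and 413 on plates 1 and 2 alone, where 1 plate replaces the demand for 3 values, against 68. The median correlation, 0.01, was highest, at 0.072, in moLCs of plate 2. The setting without the moLC lowest in LC markers was added after seeing the data and left 1 member and 126 genes past the rule. No paired analysis was possible because replicate numbers are cell names in accession order and no result comes from a test. Per longest coding transcript, 8 of 10 members' levels per kb moved and the order of the first 3 did not. Batf3, Cebpa and Zeb2 rest on 7, 3 and 18 cells.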
